A study of Mus musculus with 4 samples.

Results

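Matricellular proteins were followed at the transcript level in mouse embryonic fibroblasts (MEF), cultured fibroblasts that grow out of dissociated mouse embryos, with total RNA sequenced in a way that keeps the strand. The group comprised 9 genes, taken by name: the tenascins *Tnc* and *Tnxb*, periostin (*Postn*), osteopontin (*Spp1*), the SPARC family genes *Sparc*, *Sparcl1*, *Smoc1* and *Smoc2*, and *Tgfbi*. The rule used no measured value, but the members and the lists of related genes were chosen with earlier results of these data known. All 9 were found among the 25731 genes that could be named in the deposited table, where they had 25 transcripts. Each gene is described by its transcript with the longest gene body. Transcripts of the same gene mostly overlap and share reads, so agreement between them is not independent. Of the 9, 6 had a mean of at least 1 RPKM over the libraries, as had 10727 genes in all, and *Smoc1*, *Sparcl1* and *Tnxb* were below it.

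The 4 libraries were *Hmga2*+/+ Ctrl, *Hmga2*+/+ TGFB1, *Hmga2*-/- Ctrl and *Hmga2*-/- TGFB1. HMGA2 is a chromatin protein that binds the minor groove of AT-rich DNA, and *Hmga2*-/- MEF come from embryos that lack its gene. According to the labels, cells of both genotypes came from C57BL/6 embryos of day 15.5 after the head, limbs, tail and inner organs had been taken off. Both were immortalised with simian virus SV40 and kept for a limited number of passages, according to the methods of the study. All cultures were starved overnight in 1% FCS. TGFB1 cultures then received 10 ng/ml of human recombinant transforming growth factor beta 1 for 24 h, and Ctrl cultures received water. The labels give 1 library per condition and do not say how many embryos or cultures stood behind it. No difference between libraries therefore has a replicate check, no p-value is given, and a difference between genotypes cannot be told apart from a difference between 2 cultures.

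Matricellular proteins are secreted into the extracellular matrix, where they tune how cells adhere, migrate and respond to growth factors, and most are not load-bearing parts of the matrix themselves. In fibroblasts they are known for being laid down during development, wound repair and fibrosis. TGFB1, the ligand used here, signals through SMAD transcription factors and is a classic inducer of matrix genes in fibroblasts.

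The libraries held 56140000, 57300000, 56610000 and 56940000 mapped reads in the order given above, as derived from the steps between low values. A transcript of 1 kb with 3 reads would have had between 0.0524 and 0.0534 RPKM. *Hmga2* had 14.8 and 40.7 RPKM in *Hmga2*+/+ Ctrl and TGFB1 and 0 reads in both *Hmga2*-/- libraries. The TGFB1 target gene *Ccn2* (also known as *Ctgf*) was at least 1.5-fold higher with TGFB1 in both genotypes, with 13.2 RPKM in *Hmga2*+/+ Ctrl, 173 in *Hmga2*+/+ TGFB1, 24.9 in *Hmga2*-/- Ctrl and 359 in *Hmga2*-/- TGFB1. The 8 fibroblast markers examined all had a mean of at least 1 RPKM and summed to 1874, 1940, 2263 and 2160 RPKM, of which *Vim* made up 958, 1119, 1497 and 1390 RPKM. *Col3a1*, *Pdgfra* and *Dcn* of this list were at least 1.5-fold lower with TGFB1 in both genotypes. *Thy1* was higher, 1.61-fold in *Hmga2*+/+ and 2.16-fold in *Hmga2*-/- MEF, and *Pdgfrb* reached 1.5-fold higher in *Hmga2*-/- MEF alone, at 1.58-fold.

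Markers of other cell types stayed low, with exceptions among endothelial and cartilage genes. Of 6 macrophage and blood cell markers 1 passed the limit of 1 RPKM, *Cd68* with 1.25 to 1.63 RPKM, and the list summed to between 1.39 and 2.0 RPKM. The defining markers *Ptprc*, *Adgre1* and *Itgam* had at most 0.008 RPKM. The 5 bone markers had at most 0.299 RPKM and *Ibsp* was listed at 0. The 4 skeletal muscle markers summed to at most 0.006 RPKM, the 4 Schwann cell and neural crest markers to at most 0.362 RPKM, and the 5 epithelial markers to at most 0.928 RPKM. The 4 cartilage markers summed to 0.405 and 0.416 RPKM in the Ctrl libraries and to 1.59 and 1.25 RPKM in the TGFB1 libraries of *Hmga2*+/+ and *Hmga2*-/-. That increase was carried by *Acan*, with 0.039, 1.15, 0.024 and 0.609 RPKM in the order of the libraries, while *Col2a1* had 0.361 to 0.643 RPKM and *Matn1* and *Col9a1* had at most 0.009 RPKM. The 4 endothelial markers summed to 3.89, 4.86, 7.12 and 8.14 RPKM, with the defining marker *Cdh5* at no more than 0.048 RPKM. Their sum hides opposite moves of 2 receptor genes, *Kdr* with 1.11, 4.46, 1.46 and 7.39 RPKM and *Tek* with 2.75, 0.330, 5.65 and 0.686 RPKM. The part of these lists in the results below was not tested. In bulk RNA, fewer cells of a type and less RNA per cell cannot be told apart.

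The promoters of *Spp1* and *Tnc*, which rose, and of *Tgfbi* and *Tnxb*, which were lower with TGFB1, are printed first, because the question of the study concerns transcription from promoters after TGFB1. Reference sequence from RefSeq (build GRCm38.p6, 250 bases before to 50 bases after a start site, read on the strand of the gene) was matched by symbol for 6 of the 9 members, *Tnc*, *Tnxb*, *Postn*, *Spp1*, *Sparc* and *Tgfbi*, and not for *Sparcl1*, *Smoc1* and *Smoc2*. The windows shown are set at the start site of the counted transcript, except for *Tgfbi*, whose RefSeq start lies 17 bases away. Capitals mark matches, on either strand, to 5 motifs. These were the CAGA box that SMAD3 and SMAD4 bind, spelled CAGACA and seen as TGTCTG where it lies on the other strand, and a SMAD palindrome spelled GTCTAGAC. They further were the AP-1 site, spelled TGAGTCA in its first form and with TGACTCA as its reverse complement, the TEAD site spelled GGAATG, and the TATA box spelled TATAAA. No match overlapped another in the windows shown. The osteopontin promoter lies at chr5:104434861-104435160 on the plus strand, the tenascin C promoter at chr4:64046966-64047265 on the minus strand, the *Tgfbi* promoter at chr13:56609336-56609635 on the plus strand and the tenascin XB promoter at chr17:34670285-34670584 on the plus strand.
Spp1: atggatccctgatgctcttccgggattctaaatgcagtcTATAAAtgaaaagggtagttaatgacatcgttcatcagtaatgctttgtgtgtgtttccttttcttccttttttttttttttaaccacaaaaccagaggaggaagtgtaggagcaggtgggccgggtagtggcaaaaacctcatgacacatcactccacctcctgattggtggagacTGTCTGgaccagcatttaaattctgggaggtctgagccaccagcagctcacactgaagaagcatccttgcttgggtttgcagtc
Tnc: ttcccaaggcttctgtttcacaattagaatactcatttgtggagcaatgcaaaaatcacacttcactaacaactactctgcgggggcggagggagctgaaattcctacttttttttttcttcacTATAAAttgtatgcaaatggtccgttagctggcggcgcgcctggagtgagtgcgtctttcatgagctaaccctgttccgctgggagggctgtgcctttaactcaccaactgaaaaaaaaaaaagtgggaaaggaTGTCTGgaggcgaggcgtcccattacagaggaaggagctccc
Tgfbi: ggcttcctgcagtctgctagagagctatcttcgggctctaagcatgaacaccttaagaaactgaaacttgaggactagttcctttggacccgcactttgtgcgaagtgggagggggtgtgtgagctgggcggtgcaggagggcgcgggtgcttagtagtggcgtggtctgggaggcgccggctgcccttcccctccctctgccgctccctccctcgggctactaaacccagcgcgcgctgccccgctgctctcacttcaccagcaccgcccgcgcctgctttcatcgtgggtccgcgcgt
Tnxb: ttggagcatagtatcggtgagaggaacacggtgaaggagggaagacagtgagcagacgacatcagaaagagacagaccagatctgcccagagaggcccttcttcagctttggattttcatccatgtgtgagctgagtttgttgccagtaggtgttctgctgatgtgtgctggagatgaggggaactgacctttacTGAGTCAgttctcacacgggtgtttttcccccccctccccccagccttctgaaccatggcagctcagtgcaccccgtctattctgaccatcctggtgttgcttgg

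In the *Spp1* window a CAGA box on the antisense strand began 34 bases before the start site and a TATAAA began 211 bases before it. The printed *Tnc* window held a CAGA box on the antisense strand from base 9 to base 14 after the start site and a TATAAA that began 126 bases before it. Another *Tnc* window, not printed, is set at a RefSeq start 79 bases from that of the counted transcript. Seen from that start, the same CAGA box began 71 bases and the same TATAAA 205 bases before it. A further CAGA box on the sense strand lay from base 40 to base 45 after that start. In *Tnxb* the AP-1 letters began 55 bases before the start site, and the *Tgfbi* window, with a GC content of 63.3%, held none of the 5 motifs. Among the other windows not printed, *Sparc* had CAGA boxes beginning 36 bases before and 15 bases after its start site, and *Postn* had a TATAAA beginning 26 bases before it. The CAGA box was thus in 3 of the 6 members with a window, against 21.0% of 32851 RefSeq promoters of the same length. The 6 members had 9 windows and were counted by gene, while the shares are of single windows, so the units are not alike. TATAAA was in 3 of the 6 members against 13.6% of promoters. AP-1 letters were in 1 member against 5.20%, and the TEAD site and the SMAD palindrome were in 0 members against 14.7% and 0.213%. A match of letters is a description of the window and was not tied to binding by any measurement here.

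In the TGFB1 libraries the 9 members covered more than 4 orders of magnitude of RPKM, with *Tnxb* at 9 reads at the low end. The range was narrower in the Ctrl libraries. RPKM is a unit that divides reads by transcript length and so allows levels of different genes to be compared. In the *Hmga2*+/+ Ctrl library the order from high to low was *Sparc*, *Postn*, *Tnc*, *Tgfbi*, *Spp1*, *Smoc2*, *Sparcl1*, *Smoc1* and *Tnxb*. In *Hmga2*-/- Ctrl the order was the same except that *Tgfbi* stood before *Tnc*. In both TGFB1 libraries the order was *Sparc*, *Spp1*, *Postn*, *Tnc*, *Smoc2*, *Tgfbi*, *Smoc1*, *Sparcl1* and *Tnxb*, so osteopontin moved from the fifth place to the second. Among neighbours in these orders, the 95% counting intervals overlapped for *Sparcl1* and *Smoc1* in both Ctrl libraries and for no other pair. These intervals, like all intervals and floors given here, cover counting error only.

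**Figure D1:**
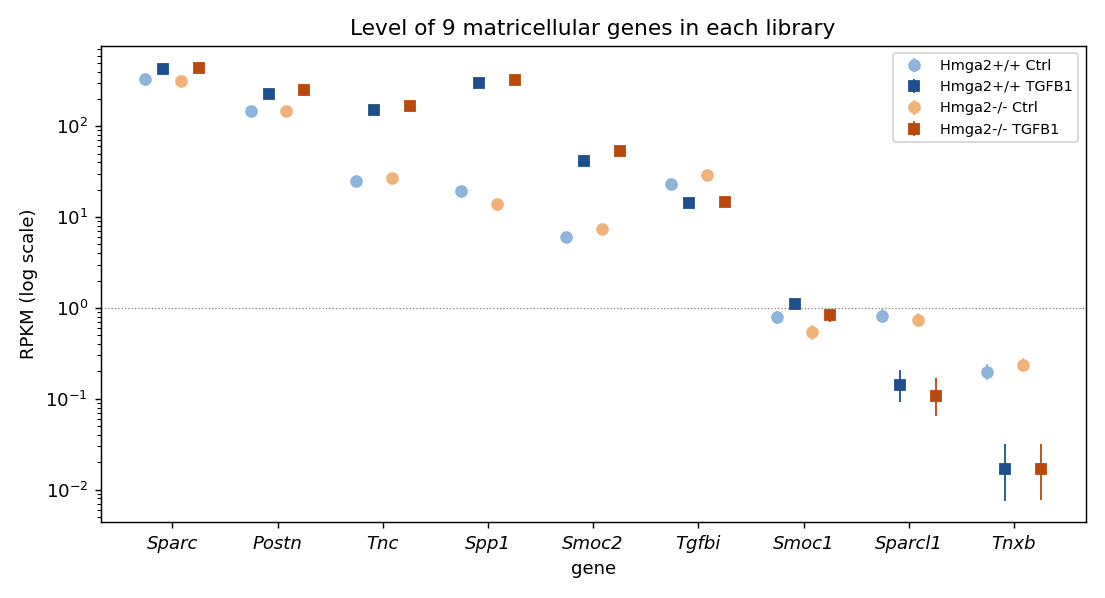
RPKM (log scale) of the 9 matricellular genes in each of the 4 libraries. Circles are Ctrl and squares TGFB1, blue is *Hmga2*+/+ and orange *Hmga2*-/-, the bars are 95% counting intervals (often smaller than the symbol), and the dotted line is 1 RPKM. *Sparc* sat highest in each library with 311 to 439 RPKM, *Spp1* rose from below *Tnc* to above *Postn* with TGFB1, and *Tnxb* sat lowest.

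The sum of the 9 members was 554 RPKM in *Hmga2*+/+ Ctrl and 1157 RPKM in *Hmga2*+/+ TGFB1, a ratio of 2.09. It was 538 RPKM in *Hmga2*-/- Ctrl and 1243 RPKM in *Hmga2*-/- TGFB1, a ratio of 2.31. *Sparc* made up 60.0% of the sum in *Hmga2*+/+ Ctrl and 36.6% with TGFB1, whereas *Spp1* made up 3.50% and 26.2%. In *Hmga2*-/- MEF the share of *Sparc* was 57.8% and 35.3% and that of *Spp1* 2.60% and 25.9%. The share of *Tnc* was 4.45% in *Hmga2*+/+ Ctrl and 12.9% in *Hmga2*+/+ TGFB1, and that of *Postn* was 26.5% and 19.4%. In *Hmga2*-/- MEF the share of *Tnc* was 5.06% and 13.4% and that of *Postn* 27.5% and 19.9%. Within the sum of these 9 genes, *Sparc* and *Postn* thus had lower shares and *Spp1* and *Tnc* higher shares with TGFB1 in both genotypes. The RPKM of *Sparc* and *Postn* were themselves higher with TGFB1, and matricellular genes outside the 9 are not part of this sum.

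The TGFB1 response was measured as the log2 ratio of RPKM, TGFB1 over Ctrl, within each genotype, and a member is said to have risen or fallen where this ratio reached 1.5-fold, the limit the study used for TGFB1-inducible genes. In *Hmga2*+/+ MEF 4 of the 6 members with a mean of at least 1 RPKM rose, *Spp1*, *Smoc2*, *Tnc* and *Postn*, while 11.6% of the 10727 genes did. In the same cells 1 of the 6, *Tgfbi*, fell, while 15.8% of all genes did. In *Hmga2*-/- MEF the same 4 of 6 rose against a background of 13.4%, and *Tgfbi* again was the 1 of 6 that fell, against 14.2%. Over all 9 members, 3 of them under the filter, the median log2 ratio was 0.47 in *Hmga2*+/+ and 0.62 in *Hmga2*-/- MEF. Both medians are the values of *Smoc1*, which is under the filter. For the 10727 genes, which all passed it, the medians were -0.04 and 0.02, so the sets are not alike.

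**Figure D2:**
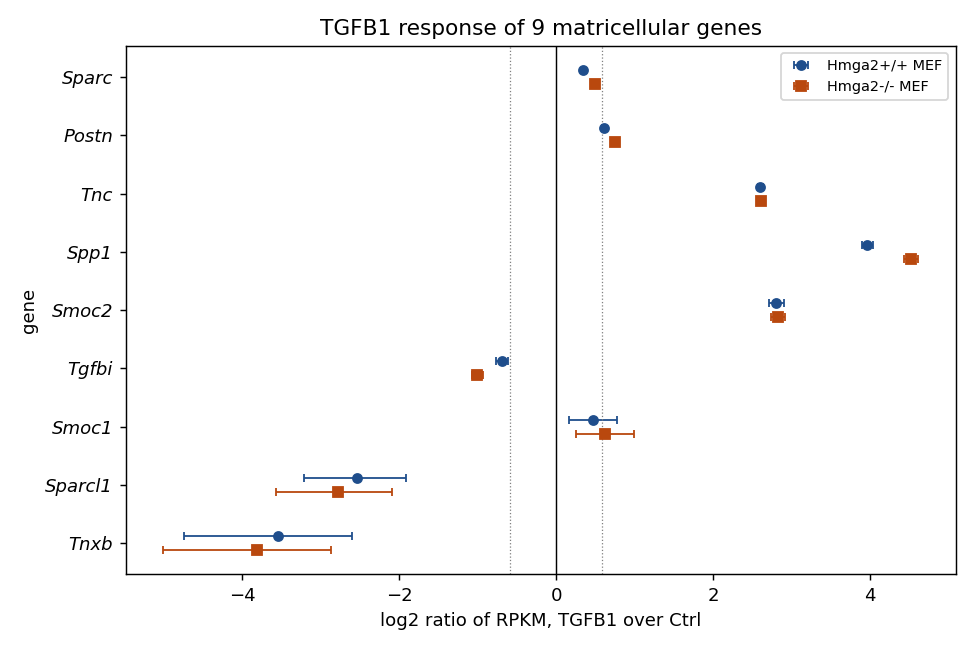
TGFB1 response of the 9 matricellular genes as log2 ratio of RPKM, TGFB1 over Ctrl, with circles for *Hmga2*+/+ and squares for *Hmga2*-/- MEF, bars for 95% counting intervals and dotted lines at 1.5-fold. *Spp1*, *Smoc2* and *Tnc* lay far to the right, between 2.60 and 4.52, *Tgfbi*, *Sparcl1* and *Tnxb* lay to the left, and the genotypes stood close to each other for each gene.

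Osteopontin, a phosphorylated glycoprotein that binds integrins and CD44 and acts both in mineralised matrix and as a cytokine, had the widest range of the members. *Spp1* (chromosome 5, 104435111 to 104441053, plus strand) had 19.4 RPKM in *Hmga2*+/+ Ctrl, 303 in *Hmga2*+/+ TGFB1, 14.0 in *Hmga2*-/- Ctrl and 321 in *Hmga2*-/- TGFB1. Both TGFB1 libraries were high and both Ctrl libraries low, and *Hmga2*-/- Ctrl was the lowest. With TGFB1 *Spp1* rose 15.6-fold in *Hmga2*+/+ MEF, a log2 ratio of 3.97 with a 95% counting interval of 3.89 to 4.04. In *Hmga2*-/- MEF it rose 23.0-fold, a log2 ratio of 4.52 with an interval of 4.44 to 4.61. Its rank by RPKM among the 25731 named genes went from 2067 to 39 in *Hmga2*+/+ and from 3026 to 45 in *Hmga2*-/- MEF. Of the 10727 genes 99.9% had a smaller log2 ratio than *Spp1* in each genotype. Its 4 transcripts gave log2 ratios of 3.96 to 3.97 in *Hmga2*+/+ and 4.52 to 4.54 in *Hmga2*-/- MEF, so the choice of transcript made little difference.

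Of the tenascins, large hexameric or trimeric glycoproteins built of EGF-like and fibronectin type III repeats, *Tnc* rose and *Tnxb* was lower with TGFB1. *Tnc* encodes tenascin C, an anti-adhesive protein of embryonic, wounded and tumour matrix. *Tnc* (chromosome 4, 63959785 to 64047015, minus strand) had 24.7 RPKM in *Hmga2*+/+ Ctrl, 149 in *Hmga2*+/+ TGFB1, 27.2 in *Hmga2*-/- Ctrl and 166 in *Hmga2*-/- TGFB1. The Ctrl levels lay close together, as did the TGFB1 levels. *Tnc* rose 6.06-fold in *Hmga2*+/+ MEF, a log2 ratio of 2.60 (95% counting interval 2.57 to 2.63). In *Hmga2*-/- MEF it rose 6.10-fold, a log2 ratio of 2.61 (2.58 to 2.64). Its 3 transcripts lay between 2.60 and 2.64 in *Hmga2*+/+ and between 2.58 and 2.68 in *Hmga2*-/- MEF. *Tnc* moved from rank 1511 to 125 in *Hmga2*+/+ and from 1368 to 122 in *Hmga2*-/- MEF.

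Tenascin XB, the tenascin of connective tissues such as skin and tendon that associates with collagen fibrils, was the lowest of the members. *Tnxb* (chromosome 17, 34670535 to 34719815, plus strand) had 0.197 RPKM in *Hmga2*+/+ Ctrl, 0.017 in *Hmga2*+/+ TGFB1, 0.238 in *Hmga2*-/- Ctrl and 0.017 in *Hmga2*-/- TGFB1. These levels stood for 105, 9, 128 and 9 reads, so the TGFB1 levels rest on few reads. The log2 ratio was -3.53 in *Hmga2*+/+ MEF (95% counting interval -4.74 to -2.59) and -3.81 in *Hmga2*-/- MEF (-5.00 to -2.87). Both intervals lie beyond a 1.5-fold decrease, at a level far under 1 RPKM.

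In the SPARC family, whose members share an extracellular calcium-binding domain, *Smoc2* rose, *Sparc* stayed within the limit and *Sparcl1* was lower with TGFB1. *Smoc2* encodes SPARC-related modular calcium-binding protein 2, a basement membrane and matrix protein. *Smoc2* (chromosome 17, 14279506 to 14404790, plus strand) had 5.98 RPKM in *Hmga2*+/+ Ctrl, 41.8 in *Hmga2*+/+ TGFB1, 7.45 in *Hmga2*-/- Ctrl and 53.0 in *Hmga2*-/- TGFB1. Each *Hmga2*-/- library was above its *Hmga2*+/+ counterpart and each TGFB1 library far above both Ctrl libraries. *Smoc2* rose 6.99-fold in *Hmga2*+/+ MEF, a log2 ratio of 2.80 (95% counting interval 2.71 to 2.90), and 7.11-fold in *Hmga2*-/- MEF, a log2 ratio of 2.83 (2.74 to 2.92). Over its 4 transcripts the log2 ratio ran from 2.52 to 2.87 in *Hmga2*+/+ and from 2.70 to 2.94 in *Hmga2*-/- MEF.

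*Sparc* encodes the collagen-binding glycoprotein osteonectin and was the most abundant member in each library. *Sparc* (chromosome 11, 55394159 to 55420080, minus strand) had 333 RPKM in *Hmga2*+/+ Ctrl, 424 in *Hmga2*+/+ TGFB1, 311 in *Hmga2*-/- Ctrl and 439 in *Hmga2*-/- TGFB1. Its ranks among the named genes lay between 24 and 34. The TGFB1 libraries were above the Ctrl libraries by a log2 ratio of 0.35 (95% counting interval 0.33 to 0.37) in *Hmga2*+/+ and 0.50 (0.48 to 0.51) in *Hmga2*-/- MEF, both under the limit of 1.5-fold. Of the 10727 genes, 78.7% had a smaller log2 ratio than *Sparc* in *Hmga2*+/+ and 83.4% in *Hmga2*-/- MEF.

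The close relative *Smoc1*, which encodes another matrix protein of this family known for antagonising BMP signalling, had 0.790 RPKM in *Hmga2*+/+ Ctrl, 1.09 in *Hmga2*+/+ TGFB1, 0.539 in *Hmga2*-/- Ctrl and 0.830 in *Hmga2*-/- TGFB1, from 106 to 217 reads (chromosome 12, 81026808 to 81186414, plus strand). Its log2 ratio was 0.47 in *Hmga2*+/+ (95% counting interval 0.16 to 0.77) and 0.62 in *Hmga2*-/- MEF (0.26 to 0.99). The intervals include the limit of 1.5-fold on both occasions, so *Smoc1* cannot be placed on either side of it at this depth. *Sparcl1* encodes hevin, a SPARC-like protein that is anti-adhesive and known from endothelium and the nervous system. *Sparcl1* (chromosome 5, 104079109 to 104114088, minus strand) had 0.817 RPKM in *Hmga2*+/+ Ctrl, 0.141 in *Hmga2*+/+ TGFB1, 0.742 in *Hmga2*-/- Ctrl and 0.108 in *Hmga2*-/- TGFB1, from 142, 25, 130 and 19 reads. It was 5.79-fold lower with TGFB1 in *Hmga2*+/+ MEF, a log2 ratio of -2.53 (-3.21 to -1.91), and 6.87-fold lower in *Hmga2*-/- MEF, a log2 ratio of -2.78 (-3.56 to -2.08). *Smoc1* and *Smoc2*, and *Sparc* and *Sparcl1*, thus differed from each other in level and in response.

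Periostin and the TGFBI protein are the fasciclin domain proteins of the group, and they moved in opposite directions. *Postn* encodes periostin, which binds integrins and collagen and promotes collagen cross-linking. *Postn* (chromosome 3, 54361107 to 54391041, plus strand) had 147 RPKM in *Hmga2*+/+ Ctrl, 224 in *Hmga2*+/+ TGFB1, 148 in *Hmga2*-/- Ctrl and 248 in *Hmga2*-/- TGFB1. The Ctrl levels were near each other and both TGFB1 levels were higher. *Postn* rose 1.52-fold in *Hmga2*+/+ MEF, a log2 ratio of 0.61 (95% counting interval 0.59 to 0.63), and 1.68-fold in *Hmga2*-/- MEF, a log2 ratio of 0.75 (0.73 to 0.77). The rise in *Hmga2*+/+ MEF is close to the limit of 1.5-fold, which is 0.58 on the log2 scale, and its 5 transcripts gave 0.59 to 0.64.

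*Tgfbi* encodes transforming growth factor beta induced protein (also called βig-h3), an adhesion protein that was named for its induction by TGFB1 in other cells. *Tgfbi* (chromosome 13, 56609603 to 56639339, plus strand) had 23.0 RPKM in *Hmga2*+/+ Ctrl, 14.2 in *Hmga2*+/+ TGFB1, 29.2 in *Hmga2*-/- Ctrl and 14.6 in *Hmga2*-/- TGFB1. Both TGFB1 levels were below both Ctrl levels and almost equal to each other. *Tgfbi* fell 1.61-fold in *Hmga2*+/+ MEF, a log2 ratio of -0.69 (95% counting interval -0.77 to -0.61), and 2.0-fold in *Hmga2*-/- MEF, a log2 ratio of -1.0 (-1.08 to -0.93). Of the 10727 genes 12.3% had a lower log2 ratio than *Tgfbi* in *Hmga2*+/+ and 5.91% in *Hmga2*-/- MEF. Its 2 transcripts lay between -0.69 and -0.67 in *Hmga2*+/+ and between -1.0 and -0.97 in *Hmga2*-/- MEF. Both transcripts have the same start and end, at 2645 and 2667 bases, and largely count the same reads, so their agreement adds little. The decrease was seen in both genotypes, in the direction opposite to its name.

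**Figure D3:**
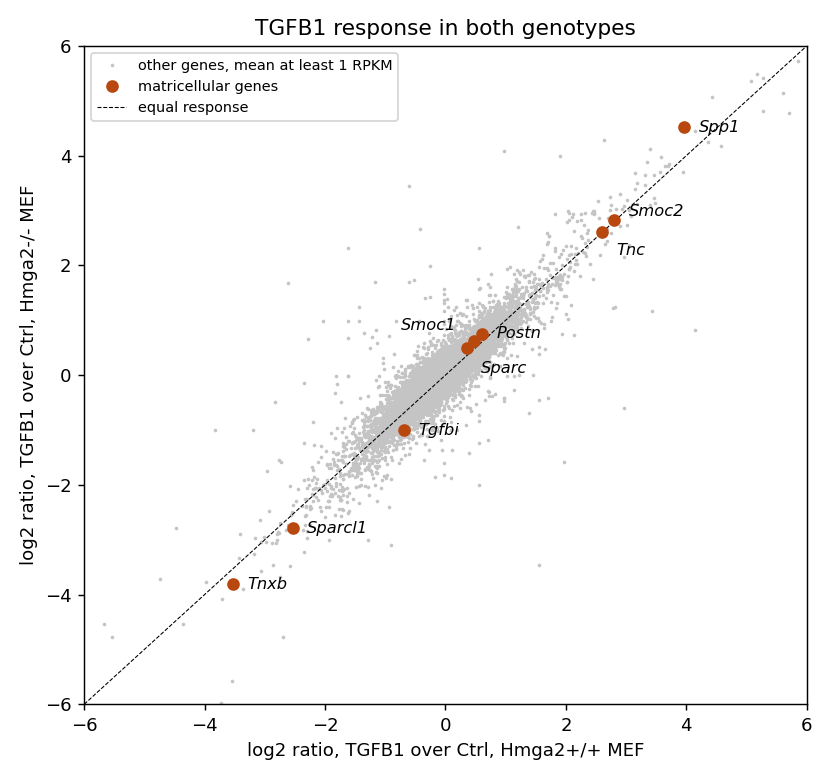
TGFB1 response (log2 ratio, TGFB1 over Ctrl) in *Hmga2*+/+ MEF on the x axis and in *Hmga2*-/- MEF on the y axis. Grey points are other genes with a mean of at least 1 RPKM (10713 drawn, 8 beyond the axes), orange points the 9 matricellular genes and the dashed line equal response. The members lay near the line from *Tnxb* at the lower left to *Spp1* at the upper right, with *Spp1* above the line and *Tgfbi* below it.

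Next, the genotypes were compared within each treatment, using the same 4 libraries as the TGFB1 comparisons. In the Ctrl libraries 0 of the 6 members that averaged 1 RPKM or more were at least 1.5-fold higher in *Hmga2*-/- than in *Hmga2*+/+ MEF and 0 were at least 1.5-fold lower, against 2.23% and 1.88% of all genes. In the TGFB1 libraries the members again gave 0 and 0, against 3.03% and 1.95%. With so small a background, 0 of 6 is near what all genes show. The median log2 ratio of the 9 members, 3 of them under the filter, was 0.01 in Ctrl and 0.05 in TGFB1. It was -0.02 and 0.04 over the 10727 genes, which all passed the filter.

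Within the limit, the members differed from each other in the Ctrl libraries. The counting interval lay above 0 for 3 members (*Tgfbi*, *Smoc2* and *Tnc*), below 0 for 3 (*Smoc1*, *Spp1* and *Sparc*) and included 0 for *Postn*, *Sparcl1* and *Tnxb*. *Spp1* was lower in *Hmga2*-/- Ctrl by a log2 ratio of -0.47 (95% counting interval -0.58 to -0.36). *Tgfbi* was higher there by 0.35 (0.28 to 0.41) and *Smoc2* by 0.32 (0.19 to 0.44). For *Smoc1*, at 154 and 106 reads, the log2 ratio was -0.55 (-0.92 to -0.18), an interval that includes the limit of 1.5-fold.

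In the TGFB1 libraries the intervals of *Tnc*, *Spp1*, *Smoc2*, *Postn* and *Sparc* lay above 0, that of *Smoc1* below it, and those of *Tgfbi*, *Sparcl1* and *Tnxb* included it. *Smoc2* was higher in *Hmga2*-/- TGFB1 by a log2 ratio of 0.34 (95% counting interval 0.30 to 0.39), close to its difference in Ctrl. *Tnc* was higher by 0.15 (0.14 to 0.17) and likewise by 0.14 (0.10 to 0.18) in Ctrl. The difference of *Spp1* was 0.09 (0.06 to 0.11) and that of *Tgfbi* 0.04 (-0.05 to 0.12), so the genotypes stood nearer to each other with TGFB1 than in Ctrl for both genes. Differences of under 0.1 are not far from the shifts of -0.05 to 0.04 that scaling the libraries to a common median gave over the 5 comparisons. After this scaling the difference of *Spp1* in the TGFB1 libraries was 0.06, and that of *Sparc* was 0.02 in place of 0.05.

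**Figure D4:**
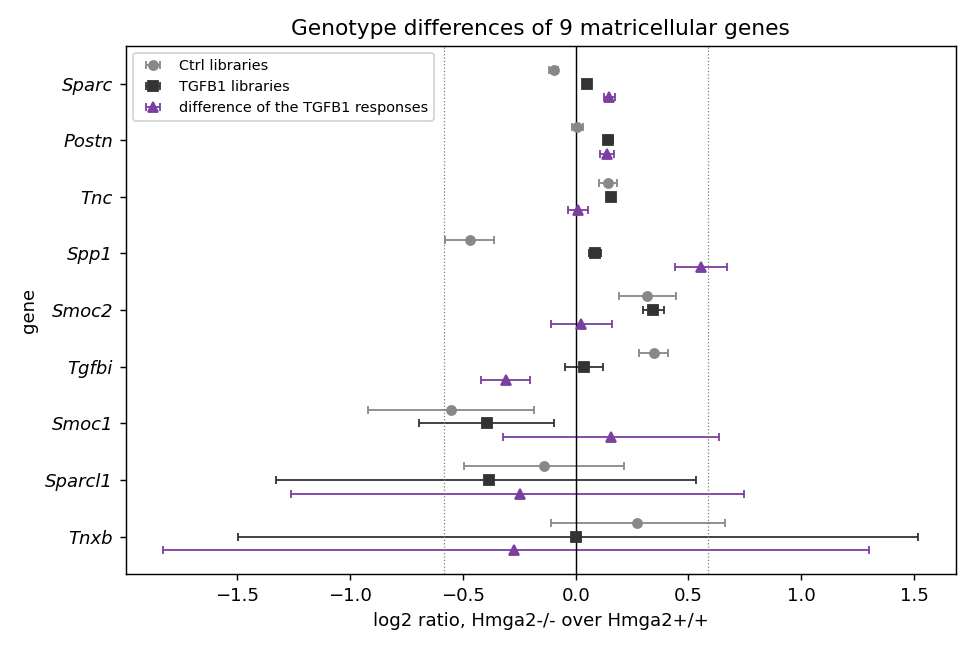
Genotype differences of the 9 matricellular genes as log2 ratio, *Hmga2*-/- over *Hmga2*+/+, in the Ctrl libraries (circles) and the TGFB1 libraries (squares), and the difference of their TGFB1 responses (triangles). Bars are 95% counting intervals and dotted lines mark 1.5-fold. Each value lay within the dotted lines, *Spp1* came nearest on the right for the response at 0.56, and the bars of *Sparcl1* and *Tnxb* were wide.

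Whether the TGFB1 response itself differed between genotypes was measured as the ratio of both responses. No member reached 1.5-fold in this ratio, 0 of 6 being higher and 0 lower in *Hmga2*-/- MEF, against 2.51% and 1.66% of all genes. The median over the 9 members, 3 of them under the filter, was 0.03 and that over the 10727 genes past it 0.05. *Spp1* came closest with a log2 difference of 0.56 (95% counting interval 0.44 to 0.67), which is 1.47-fold and an interval that includes the limit. The larger response of *Spp1* in *Hmga2*-/- MEF goes with its lower level in *Hmga2*-/- Ctrl, as the TGFB1 levels of 303 and 321 RPKM were close.

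For *Tgfbi* the log2 difference of the responses was -0.31 (95% counting interval -0.42 to -0.20), the larger decrease being in *Hmga2*-/- MEF, where the Ctrl level was the higher one. *Postn* and *Sparc* had differences of 0.14 (0.11 to 0.17) and 0.15 (0.12 to 0.17), which became 0.08 and 0.09 with libraries scaled to a common median. For *Tnc* the difference was 0.01 (-0.03 to 0.05), -0.04 after that scaling, and for *Smoc2* it was 0.03 (-0.11 to 0.16). The intervals of *Smoc1* (-0.32 to 0.64), *Sparcl1* (-1.26 to 0.75) and *Tnxb* (-1.83 to 1.30) were wide and included 0.

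*Spp1* and *Sparcl1* lie in the same stretch of chromosome 5, together with the genes of other SIBLING proteins, acidic phosphoproteins of bone and dentin, and their levels were compared along it. The start site of *Sparcl1* lies 321 kb before that of *Spp1*. Between them, *Dspp* had at most 0.004 RPKM, *Dmp1* had 0.129 to 0.236 RPKM, and *Ibsp* and *Mepe* were listed at 0 in the 4 libraries. *Pkd2*, a cation channel gene whose start lies 24.3 kb beyond that of *Spp1*, had 47.6 RPKM in *Hmga2*+/+ Ctrl, 67.4 in *Hmga2*+/+ TGFB1, 45.9 in *Hmga2*-/- Ctrl and 74.6 in *Hmga2*-/- TGFB1. *Spp1* was thus the one SIBLING gene of the stretch with more than 1 RPKM in any library.

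**Figure D5:**
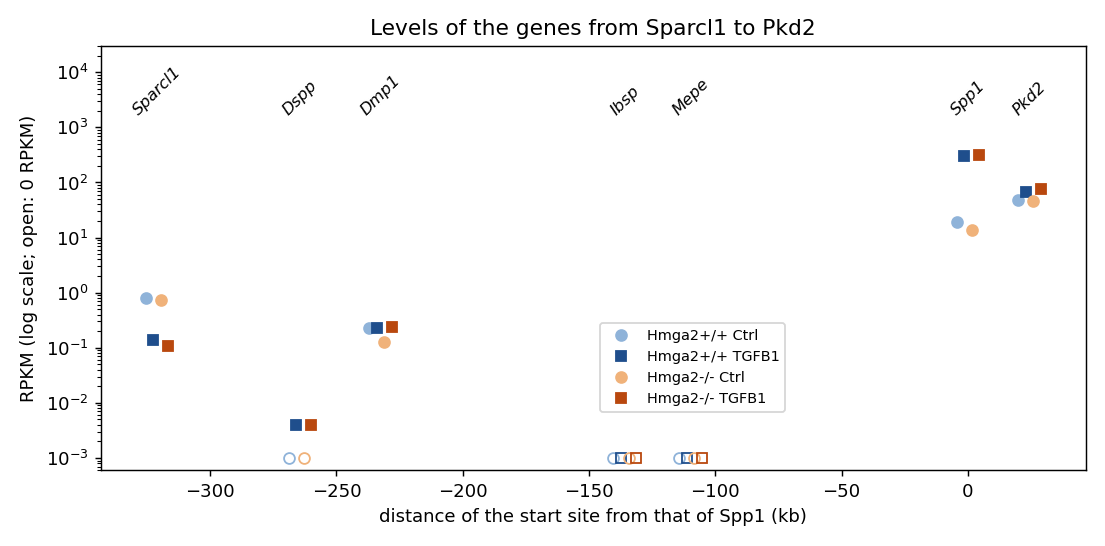
RPKM (log scale) of the 7 genes from *Sparcl1* to *Pkd2* in the 4 libraries, against the distance of their start sites from that of *Spp1* in kb, with the symbols of a gene set slightly apart. Open symbols stand for 0 RPKM and are drawn at 0.001. *Spp1* and *Pkd2* sat at the right with 14.0 to 321 RPKM, *Sparcl1* at the left below 1 RPKM, and the genes between them below 0.3 RPKM.

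Genes related to the members by family or partnership were counted as lists. Among 11 further genes, namely tenascin, SPARC family and SIBLING genes and the fasciclin domain receptor gene *Stab1*, 8 had under 1 RPKM in each library, and *Spock1*, *Ibsp* and *Mepe* were listed at 0 throughout. Of the 3 with a mean of at least 1 RPKM, 1 rose with TGFB1 in each genotype and 0 fell, counts too small to set against the 11.6% and 13.4% of all genes that rose. *Fstl1*, the most abundant relative at 210 to 286 RPKM, stayed within the limit. The gene that rose was *Spock3*, a testican of the SPARC family. It had 1.39 RPKM in *Hmga2*+/+ Ctrl, 3.95 in *Hmga2*+/+ TGFB1, 0.599 in *Hmga2*-/- Ctrl and 1.24 in *Hmga2*-/- TGFB1. *Spock3* reached a mean of 1 RPKM mainly through the *Hmga2*+/+ TGFB1 library, so its rise is given as values and not as a result about the list. *Spock3* was also lower in *Hmga2*-/- than in *Hmga2*+/+ MEF under both treatments, and this difference is given as values for the same reason. *Tnn*, which encodes tenascin W, had 0.590, 0.717, 1.60 and 1.61 RPKM in the same order of libraries and reached a mean of 1 RPKM through the *Hmga2*-/- libraries alone, so its difference is given as values.

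Most receptors of the members that passed the limit of 1 RPKM rose. Of 11 receptor genes, 8 had a mean of at least 1 RPKM, and 7 of these rose with TGFB1 in each genotype while 0 fell, beside the 11.6% and 13.4% of all genes that rose. They were *Itgav*, *Itgb1*, *Itgb3*, *Itgb5*, *Itga5*, *Itga8* and *Cd44*, of which *Itgb3* reached a mean of 1 RPKM through its TGFB1 libraries alone (0.889 and 0.925 RPKM in Ctrl, 2.18 and 2.55 RPKM with TGFB1) and *Itga8* had 0.997 RPKM in *Hmga2*+/+ Ctrl. *Itgav*, the integrin subunit that pairs with several beta subunits to bind osteopontin, periostin and latent TGFB1, had 27.5 RPKM in *Hmga2*+/+ Ctrl, 60.2 in *Hmga2*+/+ TGFB1, 26.2 in *Hmga2*-/- Ctrl and 75.1 in *Hmga2*-/- TGFB1. *Cd44*, the hyaluronan receptor that also binds osteopontin, had 13.4, 59.6, 18.7 and 86.7 RPKM in that order and rose 4.46-fold in *Hmga2*+/+ and 4.64-fold in *Hmga2*-/- MEF. *Itgb1*, the common beta subunit, had 155, 285, 160 and 340 RPKM. The integrin genes *Itgb6*, *Itga4* and *Itga9* were under 1 RPKM in each library.

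Of 6 matrix partners and processing enzymes of the members, 2 rose in each genotype and 1 fell, where 11.6% and 13.4% of all genes rose and 15.8% and 14.2% fell. *Lox*, the lysyl oxidase that cross-links collagen, had 155 RPKM in *Hmga2*+/+ Ctrl, 547 in *Hmga2*+/+ TGFB1, 146 in *Hmga2*-/- Ctrl and 726 in *Hmga2*-/- TGFB1. Fibronectin (*Fn1*), to which tenascin C and periostin bind, had 465, 818, 404 and 769 RPKM in that order. Decorin (*Dcn*), a small proteoglycan of collagen fibrils that binds TGFB1, had 7.20, 2.68, 8.46 and 2.07 RPKM and fell 2.69-fold in *Hmga2*+/+ and 4.08-fold in *Hmga2*-/- MEF. *Col1a1*, *Col1a2* and *Bmp1* stayed within the limit in both genotypes.

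For the 3 members with the widest range of log2 RPKM over the libraries, the 3 protein-coding genes of most similar pattern were looked up by the Euclidean distance between their 4 log2 values, each centred on its own mean. *Smoc2* was nearest to *Pmepa1* at a distance of 0.11, with *Pdgfc* at 0.14 and *Sphk1* at 0.20. *Tnc* was nearest to *Gadd45a* at 0.15, with *Tmem200a* at 0.16 and *Nfatc1* at 0.19. The pattern of *Spp1* had less close neighbours, *F2rl1* at 0.55, *Areg* at 0.56 and *Itga2* at 0.60. Of these neighbours, *Areg*, *Itga2*, *Tmem200a*, *Sphk1* and *Nfatc1* were under 1 RPKM in both Ctrl libraries. They reached a mean of 1 RPKM through their TGFB1 libraries alone. In *Hmga2*+/+ and *Hmga2*-/- Ctrl, *Areg* had 0.222 and 0.147 RPKM and *Itga2* 0.137 and 0.144 RPKM. The distances rest on 4 libraries and describe likeness of level alone.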

How the data were processed

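The authors sequenced total RNA from the 4 libraries (SMARTer Stranded kit, single reads of 75 bases), used Trimmomatic for trimming and HISAT2 2.1.0 for mapping to mm10, and deposited RPKM of 63759 UCSC known gene transcripts made with HOMER. The file header names exons as the counted feature and the methods of the study name genes. The deposited column of transcript lengths, in bases, was the other column used. The study speaks of duplicates of 1 experiment, the table has 1 column per condition, and the sources used here do not say if a column pools duplicates. RPKM were read as fold changes between libraries with 0 RPKM set to 0.001, as in the study.

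Transcripts were named where at least 50% of their span lay in a same-strand GENCODE vM21 gene (57708 transcripts, 90.5%). Mapped reads were derived from the steps between RPKM of transcripts under 600 bases, and 100% of the tested values lay within 0.1 of a whole read. Intervals of ratios were exact 95% intervals of 2 read counts (Clopper-Pearson), and those of response differences exact conditional intervals of an odds ratio of 4 counts. With 1 library per condition no count test was run. Shares of all genes refer to the 10727 genes with a mean of at least 1 RPKM. The derivation of mapped reads, the 1.5-fold call and the intervals of 2 read counts were tested on simulated data with counting error only.

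Text names the 9 members, *Hmga2* and *Ccn2*, listed cell type markers, related genes, neighbours of *Spp1* and the genes of most similar pattern. Values of at most 8 related genes were planned, and more are given. The members and lists were chosen with earlier results of these data known. *Pkd2* and the genes next to *Spp1* were named for their position. Python 3.11.15, numpy 2.4.6, pandas 2.3.3, scipy 1.17.1 and matplotlib 3.10.9 were used. Alternatives changed the value added to RPKM, the filter, the scaling, the transcript per gene and the fold limit. Another gene set as a check of treatment is not reported here.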

Additional observations from a re-analysis of the deposited data

How the results depend on the processing

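No paired analysis was possible because each condition had 1 library, and for the same reason no library could be left out. Of 80 counts of members recomputed under alternatives, 5 moved by over 1.5 times. Smaller changes were seen in the members that rose, 4 in each genotype, which became 3 in each with a 2-fold limit and 5 in *Hmga2*-/- MEF with no filter or a mean of at least 0.1 RPKM. The count of members that fell with TGFB1 in *Hmga2*+/+ MEF was 1, and it was 3 with no filter on low values, 3 with a mean of at least 0.1 RPKM and 0 with a 2-fold limit. The count in *Hmga2*-/- MEF was 1, and it was 3 with no filter and 3 with a mean of at least 0.1 RPKM. By construction the looser filters admit *Sparcl1* and *Tnxb*. Of 225 log2 ratios of members 28 moved beyond their counting interval, and 0 of the called ratios changed direction. With 1 RPKM added, *Tnxb* gave -0.24 in *Hmga2*+/+ and -0.28 in *Hmga2*-/- MEF in place of -3.53 and -3.81, and *Sparcl1* gave -0.67 and -0.65 in place of -2.53 and -2.78. The log2 difference of the *Spp1* responses ran from 0.50 to 0.58 and stayed under 1.5-fold in each alternative. The restriction of the background to protein-coding genes was added after seeing the data. Depth limits *Tnxb*, *Sparcl1* and *Smoc1*, whose levels rest on 9 to 217 reads.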
